A study of Mus musculus with 2 samples.

Results

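The microRNA genes Mir122, Mir192, Mir194-1, Mir194-2 and Mir215, known from hepatocytes and gut epithelium, were examined in whole mouse heart. They are 5 of the 2202 microRNA genes counted, chosen by symbol for what is known of these tissues, with earlier results of these data known. Small RNA, limited to fragments under 30 bases, was sequenced from the hearts of 2 male mice of the strain B6CASTF1/J at 2 months of age. This strain is an F1 hybrid of C57BL/6J and CAST/EiJ, and the labels give no other genotype, tissue or treatment. The labels number the hearts as biological replicates 1 and 2 from separately numbered males, yet give both the same donor identifier. The spread between replicates is therefore that of 2 libraries, and no comparison of conditions exists.

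A microRNA gene is transcribed into an RNA that folds into a hairpin, and the hairpin is cut to a short duplex. Either arm, named 5p or 3p, can be loaded into an Argonaute protein, where its seed near the 5′ end pairs with target messenger RNAs. miR-122 is the dominant microRNA of hepatocytes, where it is known for its role in cholesterol and fatty acid metabolism, and it also circulates in blood plasma. miR-192, miR-194 and miR-215 are made in intestinal epithelium, liver and kidney. Their genes sit as pairs at separate places in the genome, each pair holding a miR-194 gene beside miR-192 or miR-215. None of them is among the microRNAs that define heart muscle.

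The mature sequences of the clustered genes show which members can be told apart by their reads. Mature sequences were taken by symbol from RefSeq (GRCm38.p6, the assembly of mm10) for 4 of the 5 members. Those of Mir122 were not used, so the 4 does not show how many members a match by symbol would find. The 5p products are given here with the seed, bases 2 to 8, in capitals.
miR-192-5p: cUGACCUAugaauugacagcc
miR-215-5p: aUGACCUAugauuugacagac
miR-194-5p: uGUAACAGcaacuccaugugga
The products of Mir192 and Mir215 carried the same seed, and among 1738 mature entries of the table no other product had it. Over their 21 bases they differed at 3 positions, counted from the 5′ end with the base of miR-192-5p first: C1A, A12U and C20A. Reads of Mir192 and Mir215 therefore come from different sequences, and the longest stretch shared by these hairpins was 10 bases.

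Mir194-1 and Mir194-2 give the same 5p product from separate chromosomes. Their hairpins are shown with the longest shared stretch in capitals, because this stretch decides which reads can be counted.
Mir194-1 hairpin: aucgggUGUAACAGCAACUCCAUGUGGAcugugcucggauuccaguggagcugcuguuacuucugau
Mir194-2 hairpin: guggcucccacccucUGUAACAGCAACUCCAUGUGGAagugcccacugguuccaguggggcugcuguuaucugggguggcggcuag
The shared stretch was 22 bases long and identical to miR-194-5p. A read mapped to several places entered no gene in these files, so a read lying wholly within that stretch was counted for neither Mir194 gene. The 3p arms of the pair are distinct, as shown by capitals at the bases that differ.
miR-194-1-3p: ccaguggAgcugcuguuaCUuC
miR-194-2-3p: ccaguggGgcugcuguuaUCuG
The counts of the Mir194 genes are those of reads that could be placed uniquely, and the level of miR-194-5p itself was not measured. The hairpins of Mir122, Mir192 and Mir215 shared at most 12, 13 and 11 bases with any other microRNA hairpin, short of a mature product.

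The members lie at 3 places in mm10. Mir122 (ENSMUSG00000065402.1) is on the plus strand of chromosome 18 from 65248861 to 65248926, overlapping an exon of the long noncoding RNA gene AC157910.3. Mir194-2 (ENSMUSG00000065582.1, 6264643 to 6264728) and Mir192 (ENSMUSG00000065523.1, 6264844 to 6264932) are on the plus strand of chromosome 19, separated by 115 bases, and no other annotated gene overlaps them. Mir194-1 (ENSMUSG00000065581.1, 185313319 to 185313385) and Mir215 (ENSMUSG00000065562.1, 185313581 to 185313692) are on the plus strand of chromosome 1, separated by 195 bases. The noncoding gene 2010103J01Rik holds both on the same strand, with Mir194-1 in an intron and Mir215 overlapping an exon. On the opposite strand both lie within introns of Iars2, which encodes the mitochondrial isoleucyl-tRNA synthetase.

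Depth was 3650782 reads on the strand of microRNA genes in replicate 1 and 3810675 in replicate 2, so that 1 read was worth 0.274 and 0.262 CPM. CPM, the counts scaled to a total of 1000000 such reads, is used below as the level of a hairpin gene. It is not scaled by length, and the mature products of the 4 members with a sequence are 21 or 22 bases long. The intervals are Clopper-Pearson 95% intervals and, like the limit set by a count of 0 (3 counts, or 0.822 and 0.787 CPM), cover counting error only. The labelled tissue was checked by Mir208a and Mir499, which lie in introns of myosin heavy chain genes, and these had mean levels of 2797 CPM ± 2077 and 2554 CPM ± 66.2 (SD, n = 2). Mir208b, the remaining heart muscle marker, was much lower, at 24.7 and 118 CPM, a mean of 71.1 CPM ± 65.7 (SD, n = 2). It lay below Mir122 in replicate 1 (142 CPM) and above it in replicate 2 (97.9 CPM).

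The liver and gut genes were present at trace levels. At a limit of 2 CPM in both libraries, 5 of 5 members were detected, against 15.3% of all 2202 genes. Together they had 709 reads in replicate 1 and 933 in replicate 2, or 0.0194% (interval 0.0180 to 0.0209) and 0.0245% (0.0229 to 0.0261) of the microRNA counts. The mean share was 0.0220% ± 0.00358 (SD, n = 2). Mir122 made up 73.1% of the members' reads in replicate 1 and 40.0% in replicate 2. Reads wholly within the stretch shared by the Mir194 genes are missing from these sums and shares.

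Mir122, the hepatocyte gene, had 518 reads in replicate 1 and 373 in replicate 2. These were 142 CPM (interval 130 to 155) and 97.9 CPM (88.2 to 108), with a mean of 120 CPM ± 31.1 (SD, n = 2) and rank 137 of 2202 genes. It was the highest of the members in each library. Its intervals did not overlap between libraries, where the binomial test described below called 64.4% of all genes tested. Mir122 stood 1106 times below Mir378a, the gene with the most counts.

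The genes of the clusters were lower. Mir215 had 47 and 229 reads, or 12.9 CPM (interval 9.46 to 17.1) and 60.1 CPM (52.6 to 68.4), a mean of 36.5 CPM ± 33.4 (SD, n = 2). Mir192, which shares its seed, had 50 and 137 reads, 13.7 CPM (10.2 to 18.1) and 35.95 CPM (30.2 to 42.5), a mean of 24.8 CPM ± 15.7. Mir194-2, the neighbour of Mir192, had 48 and 116 reads, 13.1 CPM (9.69 to 17.4) and 30.4 CPM (25.2 to 36.5), a mean of 21.8 CPM ± 12.2. Each of these was lower in replicate 1 with no overlap of the intervals. How many of all genes had intervals apart was not counted. The binomial test described below called 64.4% of genes tested different between the libraries, so intervals apart do not set these genes apart. Mir194-1, the neighbour of Mir215, had 46 and 78 reads, 12.6 CPM (9.22 to 16.8) and 20.5 CPM (16.2 to 25.5), a mean of 16.5 CPM ± 5.56 (SD, n = 2 each), and its intervals overlapped slightly. By mean level the order was Mir122, Mir215, Mir192, Mir194-2 and Mir194-1, with reads wholly within the stretch shared by the Mir194 genes missing from their counts. Among the clustered genes, neighbours in that order did not differ beyond the spread between replicates. In replicate 2 alone the intervals of Mir215 and Mir192 were apart, while those of Mir192 and Mir194-2, and of Mir194-2 and Mir194-1, overlapped. Overlap of separate intervals does not show that genes are alike, and shares within pairs are given below.

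**Figure D1:**
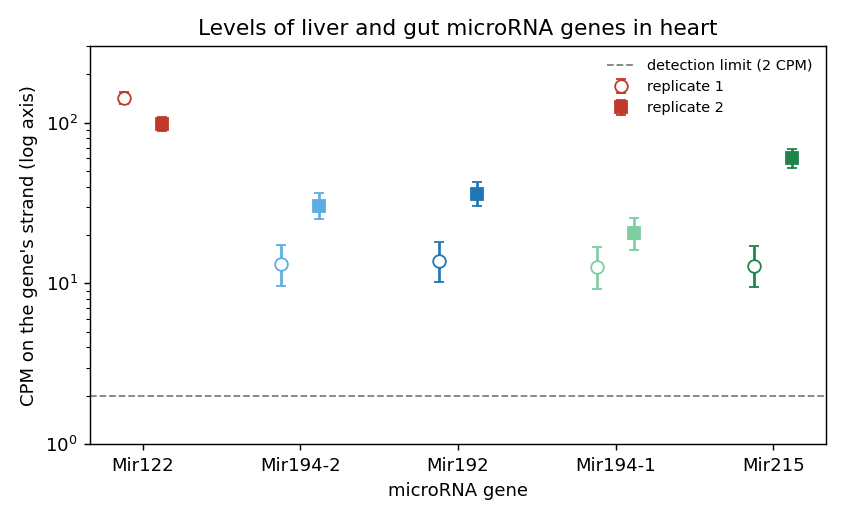
Level of each member in CPM on the gene's strand (log axis) in replicate 1 (open circles) and replicate 2 (filled squares), with Clopper-Pearson 95% intervals and the detection limit of 2 CPM as a dashed line. Mir122 lies at 142 and 97.9 CPM, and the clustered genes lie close together in replicate 1 (12.6 to 13.7 CPM) and apart in replicate 2 (20.5 to 60.1 CPM).

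Within the clusters, the counted reads of partners were about even in replicate 1, and only the chromosome 1 pair was uneven in replicate 2. The Mir194 genes were counted without reads lying wholly within their shared stretch, while Mir192 and Mir215 had no such loss to each other. The shares below are therefore of counted reads and do not give the order of the partner genes. On chromosome 19, Mir192 made up 51.0% of the pair's reads in replicate 1 (interval 40.7 to 61.3) and 54.2% in replicate 2 (47.8 to 60.4). Neither Mir192 nor Mir194-2 held more of the counted reads beyond counting error in either library. On chromosome 1, Mir215 made up 50.5% of the pair (40.0 to 61.1) in replicate 1 and 74.6% (69.3 to 79.4) in replicate 2. The log2 ratio of Mir215 over Mir194-1, with 0.5 CPM added to each, was 0.03 and 1.53, a mean of 0.78 ± 1.06 (SD, n = 2), against 0.06 and 0.24, a mean of 0.15 ± 0.13, for Mir192 over Mir194-2. The mean ratio of the chromosome 1 pair was smaller than its spread. An exact sign-flip test over 2 libraries cannot give a p below 0.5, so none of the 4 ratios examined was tested.

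The copies on different chromosomes were compared in the same way. Mir194-2 made up 51.1% of the reads of both Mir194 genes in replicate 1 (interval 40.5 to 61.5) and 59.8% in replicate 2 (52.5 to 66.8). In replicate 2 Mir194-2 held more of the counted reads beyond counting error, and in replicate 1 neither Mir194 gene did. Mir192 made up 51.5% of the reads of the pair with a shared seed in replicate 1 (41.2 to 61.8) and 37.4% in replicate 2 (32.5 to 42.6), so Mir215 was the more counted of the pair in replicate 2, and their order was not resolved in replicate 1. Summed over each place, the chromosome 1 pair had 25.5 and 80.6 CPM and the chromosome 19 pair 26.8 and 66.4 CPM. The intervals of these sums overlapped between the places in each library, with the Mir194 genes counted only by reads not wholly within their shared stretch.

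**Figure D2:**
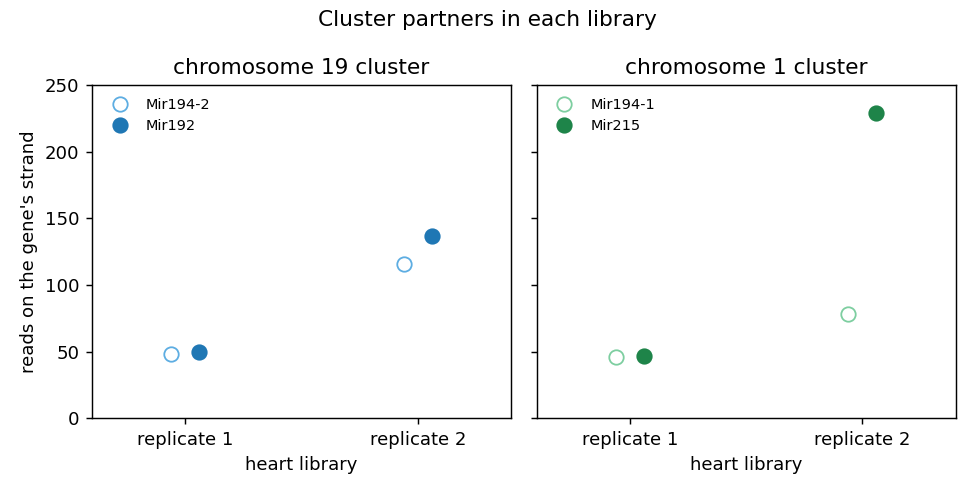
Reads on the gene's strand in each heart library for Mir194-2 and Mir192 on chromosome 19 (left) and Mir194-1 and Mir215 on chromosome 1 (right), with Mir194 genes as open circles and the vertical axis from 0. The 4 genes have 46 to 50 reads in replicate 1, and Mir215 reaches 229 reads in replicate 2 where Mir194-1 has 78.

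Differences between the libraries went in opposite directions for the hepatocyte gene and the clustered genes. Counts were compared by an exact two-sided binomial test against the ratio of TMM library sizes (edgeR's trimmed-mean scaling), with Benjamini-Hochberg adjustment over the 320 genes that passed the low-count filter. This test compares 2 libraries with counting noise, not conditions. It called 5 of 5 members, against 64.4% of all genes tested, so a call alone does not set a member apart. Mir122 was lower in replicate 2, with a log2 ratio of -0.55 (interval -0.74 to -0.35, exact binomial test, adjusted p = 5.50e-08), close in size to the median absolute log2 ratio of 0.44 over all genes tested. Genes called lower in replicate 2 made up 33.8% of those tested.

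The 4 clustered genes were higher in replicate 2, a call made for 30.6% of genes tested. Mir215 had a log2 ratio of 2.20 (interval 1.75 to 2.69, exact binomial test, adjusted p = 2.93e-27), the fourth highest of the 320 genes. Mir192 followed at 1.37 (0.90 to 1.88, exact binomial test, adjusted p = 3.24e-09) and Mir194-2 at 1.19 (0.70 to 1.71, exact binomial test, adjusted p = 1.53e-06), at ranks 18 and 22. Mir194-1 was at 0.68 (0.14 to 1.25, exact binomial test, adjusted p = 0.0195), at rank 58. The interval of Mir215 lay above those of its neighbour Mir194-1 and of Mir194-2, and overlapped that of Mir192. The median log2 ratio of the 4 genes was 1.28, beside 0.02 over all genes tested. Their summed level, without reads wholly within the stretch shared by the Mir194 genes, was 2.81 times higher in replicate 2, at 147 CPM against 52.3 CPM.

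**Figure D3:**
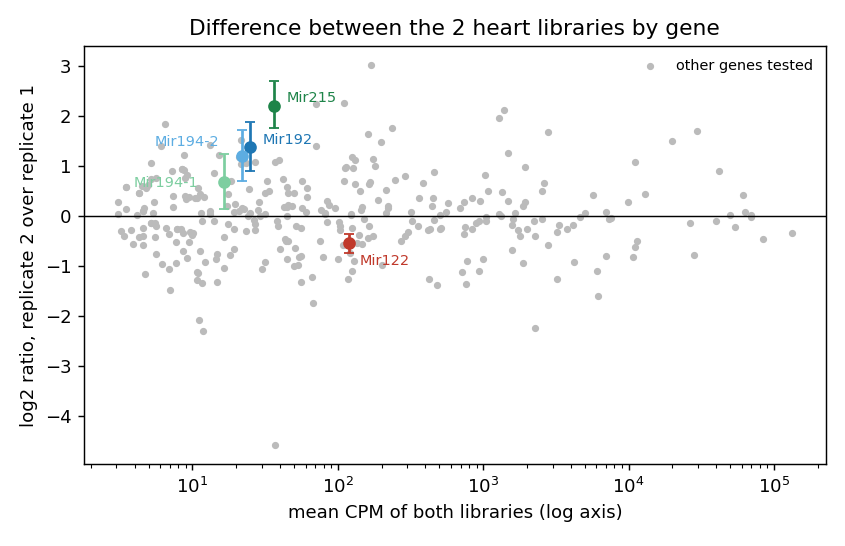
Log2 ratio of replicate 2 over replicate 1 against mean CPM (log axis) for the 320 genes tested, with the members in colour and Clopper-Pearson 95% intervals as bars. The 4 clustered genes lie above 0, led by Mir215 at 2.20, and Mir122 lies below at -0.55.

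Marker genes of other cells moved between the libraries as well. The counts of detected genes in these lists stand beside 15.3% of all 2202 genes. The red blood cell list (Mir451a, Mir144 and Mir486, 3 of 3 detected) summed to 3222 and 2960 CPM in replicates 1 and 2, and the leukocyte list (Mir142, Mir150, Mir223 and Mir155, 4 of 4 detected) to 8970 and 7190 CPM. By the same test, which called 30.6% of genes higher and 33.8% lower in replicate 2, 2 of the red blood cell genes were higher and 1 was lower, and 4 of 4 leukocyte genes were lower. The heart muscle list (3 of 3 detected) summed to 3954 and 6890 CPM, with Mir208a and Mir208b higher in replicate 2 and Mir499 lower. Mir126a, the endothelial marker, was at 52212 and 70228 CPM and was called higher. The smooth muscle pair of Mir143 and Mir145a summed to 54611 and 53284 CPM, with 1 gene called higher and 1 lower. The part of other cells or of blood plasma in the members' levels was not tested, and in whole tissue fewer cells of a type and less RNA per cell cannot be told apart.

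Other microRNA genes linked to liver or gut were read beside the members. Of 5 other liver linked genes in the files, 4 were detected, against 15.3% of all 2202 genes. Mir802, a gene known from hepatocytes, had 0 reads in both libraries, which allows up to 0.822 and 0.787 CPM. Mir101b had 199 CPM ± 134, Mir148a 131 CPM ± 68.6 and Mir483, in the Igf2 region, 50.4 CPM ± 11.6 (SD, n = 2 each). These are also made in many other tissues. Of the 4 genes tested, 3 were higher in replicate 2, 0 lower and 1 not called, where 30.6% of all genes tested were higher and 33.8% lower. Their median log2 ratio was 0.78, beside 0.02 over all genes tested.

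The other gut epithelium linked genes were also detected. Of 9 genes, 9 were detected, against 15.3% of all 2202 genes. They were led by Mir31 at 357 CPM ± 32.8, Mir200c at 163 CPM ± 15.6 and Mir203 at 146 CPM ± 39.3 (SD, n = 2 each). These 3 are also made in other epithelia. The lowest were Mir200a at 3.83 and 2.89 CPM and Mir147, which was not tested, at 2.47 and 3.41 CPM. Both lay close to the limit of 2 CPM. Of the 8 tested, 1 was higher in replicate 2, 3 were lower and 4 were not called, where 30.6% of all genes tested were higher and 33.8% lower. The median log2 ratio was -0.27. Mir429, of the miR-200 family, was the gene called higher, with 19 and 47 reads. Mir375, known from gut endocrine cells and pancreatic islets, had 35 and 29 reads.

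The genes nearest to each member in level were found by distance in log2(CPM + 0.5) over the 2 libraries, which describes these libraries only. Mir122 was nearest to Mir487b (distance 0.14), Mir196b (0.20) and Mir671 (0.24). Mir192 was nearest to Mir3068 (0.22) and then to its cluster partner Mir194-2 (0.24), followed by Mir340 (0.30). Mir194-2 was nearest to mmu-mir-3535 (0.09), Mir340 (0.10) and Mir3068 (0.20). Mir194-1 was nearest to Mir329 (0.21), Mir1930 (0.22) and Mir199b (0.37). Mir215 had no near neighbour of this kind, since its nearest were Mir192 (0.74), Mir582 (0.81) and Mir3058 (0.90).

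Reads on the strand opposite to the gene were found at Mir122 and not at the other members. Mir122 had 72 such reads against 518 on its own strand in replicate 1, and 48 against 373 in replicate 2. They made up 12.2% of the reads on both strands (interval 9.67 to 15.1) and 11.4% (8.53 to 14.8), a mean of 11.8% ± 0.567 (SD, n = 2). The share was thus alike in the libraries while the level of Mir122 was not. The annotation used for counting holds no microRNA gene on the strand opposite to Mir122, and the count without regard to strand, 590 and 421 reads, equalled the sum of both strands. Mir122b has no gene in these counts, so whether the opposite-strand reads belong to it was not tested.

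At Mir192, Mir194-1, Mir194-2 and Mir215 no opposite-strand read was counted in either library. By the limit of 3 counts, a count of 0 allows a share of up to 6%, 6.52%, 6.25% and 6.38% in replicate 1. In replicate 2 it allows up to 2.19%, 3.85%, 2.59% and 1.31%. The upper ends of the Clopper-Pearson intervals, as used for Mir122, were 7.11%, 7.71%, 7.40% and 7.55% in replicate 1. In replicate 2 they were 2.66%, 4.62%, 3.13% and 1.60%. Both kinds of limit lie below the intervals of the share at Mir122 in the same library. Iars2 runs along the opposite strand of the genes on chromosome 1, and its level was not measured here.

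Opposite-strand reads were rare at other microRNA genes too. Among 300 genes with at least 10 reads on both strands together in each library and no microRNA gene on the opposite strand, 282 had no such read, and 2.00% had them in both libraries. Mir122 had the highest share of the 300 and the most such reads. It held 69.9% of the 103 opposite-strand reads of these genes in replicate 1 and 55.2% of the 87 in replicate 2. Only 4 of the 300 genes had a mean share of 1% or more. The next by share were Mir1199 at 4.00%, from 0 and 2 reads, and Mir708 at 1.73%, from 2 and 3 reads. Mir130a had 13 and 9 opposite-strand reads, among 7655 and 11326 in all.

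**Figure D4:**
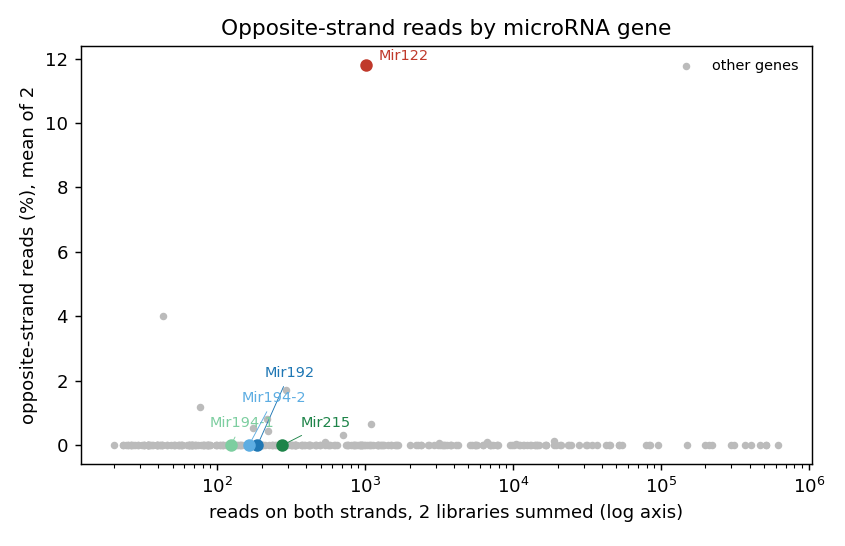
Share of reads on the opposite strand (mean of 2 libraries, in %) against reads on both strands summed over the libraries (log axis) for the 300 genes with no microRNA gene on the opposite strand. Mir122 lies at 11.8%, the other members lie at 0, and the next gene is at 4.00%.

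The hairpin of Mir122 was also compared with its own reverse complement. The longest such match was 7 bases, against a median of 8 over the 300 genes. Matches with mismatches were not tested, nor was the position of the opposite-strand reads within the hairpin, since the files give 1 count per gene and strand.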

How the data were processed

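Raw read counts per microRNA gene of each library were deposited by the authors in a separate file, on mm10 with the GENCODE M21 annotation per the accompanying file notes. The aligner was not given in the sources used here. Reads mapped to several places (48.0% and 46.4%) were counted in no gene. The 4 rows that name no gene, which held 64.8% and 63.6% of the reads, were left out. CPM was computed over the 3650782 and 3810675 counts on the gene's strand. All 2202 identifiers matched M21. Whether CAST/EiJ differences from mm10 lie in these hairpins was not tested.

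Tests used edgeR 4.0.16 in R 4.3.3 for TMM sizes and the low-count filter, with an exact binomial test at an adjusted p of 0.05. The test was run on simulated counts that held counting noise and planted changes but no other spread between libraries. That run does not show how the test behaves on real replicates. Intervals came from scipy 1.17.1. Alternatives covered strand, denominator, detection limit, scaling (DESeq2 1.42.0 or plain sums), filter, pseudocount and each replicate left out. The members and lists were chosen with earlier results of these data known. Named genes are the members, their 3 nearest genes, the 3 most abundant genes of each further list, and the cell type markers. Genes that overlap a member are named with it. Mir378a, Mir802, Mir429, Mir375, Mir200a, Mir147, Mir1199, Mir708 and Mir130a were named after their values were seen. Mir122b, listed as liver linked, has no gene in the files.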

Additional observations from a re-analysis of the deposited data

How the results depend on the processing

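Of 52 values recomputed from both libraries, 50 kept their direction and call or stayed within the spread between replicates. With 2 libraries, a mean with a replicate left out always stays within that spread, so such values are not counted here. Without regard to strand, the members' share rose to 0.0305% and Mir122 to 177 CPM, since opposite-strand reads enter Mir122 and reads of overlapping genes leave the total. The mean log2 ratio of Mir192 over Mir215 was -0.32 and changed sign between libraries, from -0.73 to 0.086 with a replicate left out. All 5 members were detected at 1 and at 5 CPM, and the 5 calls between libraries kept their direction under each scaling, filter and strand setting tried, with 181 to 213 genes called in all. No paired analysis was possible because the libraries form 1 group. With 46 to 50 reads per clustered gene in replicate 1, the counted reads of partners did not differ there beyond counting error. The order of the genes within a cluster cannot be resolved in either library, since reads wholly within the stretch shared by the Mir194 genes were not counted. The mean of Mir215, 36.5 CPM, became 12.9 or 60.1 CPM with a replicate left out.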
